A study of Mus musculus with 5 samples.

Results

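The FK506-binding proteins (FKBPs) are peptidyl-prolyl isomerases, enzymes that turn the peptide bond in front of proline and so help proteins to fold, and the founding members bind the immunosuppressants FK506 and rapamycin. Some stay in the lumen of the endoplasmic reticulum (ER), where they act on collagens and other secreted proteins, while others bind calcium release channels, heat shock protein 90 (HSP90), chromatin or mitochondria. In brain the family is best known through calcium release, calcineurin, the mTOR pathway and the steroid hormone receptors. Here 10 FKBP genes, Fkbp1a, Fkbp1b, Fkbp2, Fkbp3, Fkbp4, Fkbp7, Fkbp8, Fkbp9, Fkbp10 and Fkbp14, were taken by gene name from the 15093 genes of the table, and all 10 were listed in it. The family was put together around Fkbp14, itself selected on the difference of its CPM values between the groups of these same libraries, so its values in that contrast are given as a description with no test.

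Ribosome-bound RNA was obtained by translating ribosome affinity purification (TRAP) from central amygdala (CeA) punches of adult Drd2-TRAP mice, in which Drd2-Cre switches on an EGFP-tagged ribosomal protein L10a. Fear conditioned mice gave 3 libraries (replicates 2, 3 and 4), and there were 2 control libraries (replicates 6 and 7), each from bilateral punches pooled from 3 animals. All animals carried both transgenes, so the pull-down depends on where Drd2-Cre is or has been active. The labels call the controls home cage animals and place the collection 2 h after extinction, whereas the paper describes tone exposure without shock and collection after conditioning. The paper's methods also call these controls HC, its short form for home cage in another experiment. Values are CPM, reads per 1000000 of a library's effective size, and whole reads were recovered from them, between 19605318 and 27937520 per library. A floor of 3 reads is at most 0.158 CPM in any library and covers counting error only. The sources do not say whether the pools were prepared on separate days, so p-values measure the spread between these libraries only.

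The control libraries differed from each other more than the fear conditioned libraries did. Pearson's r of log2(CPM + 1) across genes, a description since genes are not replicates, was between 0.979 and 0.986 for pairs of fear conditioned libraries and 0.787 for the control pair. Genes with 3 reads or fewer made up 1.20%, 0.981% and 0.826% of the tested genes in fear conditioned replicates 2, 3 and 4, 4.23% in control replicate 6 and 15.7% in control replicate 7. Markers of the targeted cells, summed over the 5 of 6 listed Drd2 neuron genes, were between 15098 and 17162 CPM in fear conditioned libraries and 6463 and 9345 in controls. RNA of other cells was also present. Summed astrocyte markers (6 of 6 listed) were between 480 and 628 CPM after fear conditioning against 1405 and 2378 in controls, and oligodendrocyte markers (6 of 6) between 1112 and 2514 against 2432 and 5039. Choroid plexus markers (6 of 6) were between 58.0 and 110 CPM against 1009 and 1415, endothelial and mural markers (8 of 8) between 18.7 and 53.3 against 118 and 217, and fibroblast and meningeal markers (5 of 8) between 7.06 and 13.0 against 50.3 and 58.5. Microglia markers (6 of 6) were between 36.6 and 80.5 CPM against 77.0 and 92.2, and pallial glutamatergic markers (6 of 6) between 45.0 and 197 against 257 and 296. Single genes carried some of these sums. Ttr supplied 913 and 1320 CPM of the choroid plexus sums in controls, while Clic6 overlapped, at 50.9, 77.2 and 56.2 CPM against 51.1 and 64.2. Penk supplied 6098 and 8606 CPM of the Drd2 neuron sums in controls, and Sp9 overlapped. Ly6c1 supplied 150 CPM of the endothelial and mural sum in control replicate 7. Cldn5, the 1 of these 8 markers with a log2 fold change above 0, had 8.91, 1.79 and 7.25 CPM against 1.14 and 0.0527. Dcn supplied 30.3 CPM of the fibroblast and meningeal sum in control replicate 6 and 0.105 in control replicate 7. Slc6a13, too low to be tested, was higher after fear conditioning. Of the defining markers, Lum, Ogn and Col1a1 of fibroblasts and Gpr52 of Drd2 neurons were not listed, and Kcnj13 and Folr1 of choroid plexus were at 0 in fear conditioned replicate 2. The part of these cells in the FKBP values below was not tested, and in pooled tissue fewer cells of a type and less RNA per cell cannot be told apart.

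Fear conditioned and control libraries were compared to ask which ribosome-bound FKBP transcripts differ 2 h after the session. Of the 10 genes, 5 (Fkbp14, Fkbp9, Fkbp8, Fkbp1a and Fkbp4) had every fear conditioned library above both controls, 1 (Fkbp1b) had every fear conditioned library below both, and the groups of the other 4 overlapped. Fkbp14 was selected on this contrast, so its place was fixed in advance and is no result. That leaves Fkbp9, Fkbp8, Fkbp1a and Fkbp4 wholly above among the other 9. Over all 13560 genes tested, 20.2% lay wholly above and 16.1% wholly below, 36.4% in either direction. Against a single control, the groups of all 10 members no longer overlapped without control replicate 7, beside 77.9% of all genes, and those of 8 without control replicate 6, beside 87.5%. Both counts include Fkbp14. The comparison was made with limma on log2(CPM + 1), two-sided, with Benjamini-Hochberg adjustment over all genes tested, and a gene passed where its adjusted p was under 0.05 and its log2 fold change exceeded 0.5 in either direction. None of the 9 genes other than Fkbp14 passed, with adjusted p values between 0.217 and 0.928 (limma), and 2 of them (Fkbp9 and Fkbp8) had an unadjusted p under 0.05, beside 16.8% (2280 genes) of all genes tested. Of all genes tested, 0% passed. Without control replicate 6 limma called 4 of the 9 (Fkbp10, Fkbp1b, Fkbp8 and Fkbp9) and 8025 of 13268 genes in all, and without control replicate 7 it called 3 (Fkbp10, Fkbp2 and Fkbp7) and 3722 of 13550 in all, where the lone control is assumed to vary like the fear conditioned libraries. The median log2 fold change was 0.54 over the 10 genes, 0.48 without Fkbp14 and 0.08 over all genes tested, of which 54.0% had a log2 fold change above 0. These medians are of the main fit only, and single members moved with the processing. After quantile normalization Fkbp9, Fkbp8, Fkbp2, Fkbp4, Fkbp3 and Fkbp1a were at 1.66, 0.62, 0.48, 0.39, 0.26 and 0.26. Fkbp7, Fkbp10 and Fkbp1b were then at -0.08, -0.70 and -0.78.

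**Figure D1:**
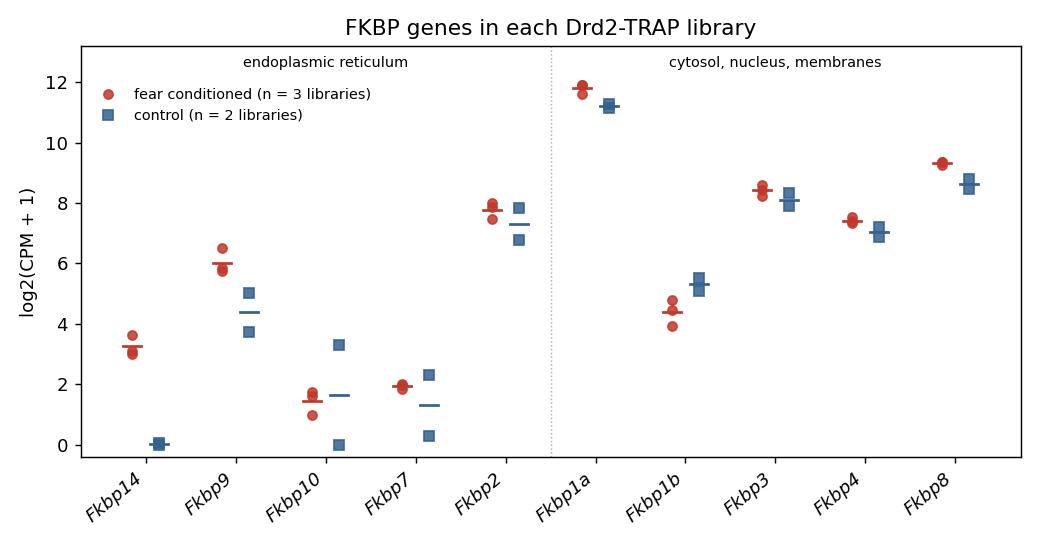
Values of the 10 FKBP genes in each library as log2(CPM + 1), with circles for the 3 fear conditioned libraries, squares for the 2 control libraries and bars for group means. Fkbp14 is near 0 in both controls, and the control libraries lie far apart for Fkbp10 and Fkbp7.

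The ER members hold Fkbp14, which was selected on its difference between the groups, and the genes whose controls differed most. Fkbp14 (ENSMUSG00000038074), which encodes the ER isomerase FKBP22 and is known for a human connective tissue disorder when mutated, had 11.5, 7.08 and 7.70 CPM in fear conditioned replicates 2, 3 and 4. In reads these were 243, 170 and 155, while control replicates 6 and 7 held 0 and 1. All fear conditioned libraries were thus high and both controls were at or under the floor. The ratio of summed reads, 568 against 1 and scaled by effective library size, was 426 (95% exact binomial interval 76.1 to 16847, counting error only). On the log2(CPM + 1) scale, which understates changes of low genes, the log2 fold change was 3.22, and it was 6.13 with a pseudocount of 0.1, again as a description of the values that chose the gene. In the whole table, 218 genes (1.61% of those tested) had over 3 reads in each fear conditioned library and 3 or fewer in both controls, as Fkbp14 did, and 9 genes (0.0664%) had the opposite pattern. The counts are not symmetric. The first pattern reaches the mean of 1 CPM needed for testing through 3 libraries and the opposite one through 2. Control replicate 7 alone held 3 reads or fewer for 15.7% of tested genes.

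Within the genome Fkbp14 lies on chromosome 6 between Scrn1 and Plekha8 in the RefSeq gene order (GRCm38.p6, a later build than that of the files, used for names and order). Plekha8 (ENSMUSG00000005225), a lipid transfer protein of the Golgi, had 9.20, 16.7 and 11.5 CPM in fear conditioned libraries against 14.4 and 13.4 in the controls. Scrn1 (ENSMUSG00000019124), secernin 1, a protein of regulated exocytosis, had 273, 468 and 373 CPM against 260 and 358. Both neighbours overlapped between the groups, at log2 fold changes of -0.18 for Plekha8 (standard error 0.49, adjusted p = 0.866) and 0.25 for Scrn1 (standard error 0.30, adjusted p = 0.695) in limma. These neighbours were looked at after the values of Fkbp14 were known. The RefSeq promoter table (GRCm38.p6), which covers 250 bases before to 50 after a start, holds 12 windows for 9 of the 10 members, all but Fkbp10. Fkbp14 has 2 starts there, and its windows are printed because the gene carries the largest difference, beside those of Fkbp9, the ER member that also lay wholly above controls, and Fkbp1b, the member that lay wholly below. Capitals mark CCAAT and CCACG on either strand, the parts of the element through which ER stress acts on chaperone promoters.
Fkbp14, chr6:54597295-54597594, minus strand: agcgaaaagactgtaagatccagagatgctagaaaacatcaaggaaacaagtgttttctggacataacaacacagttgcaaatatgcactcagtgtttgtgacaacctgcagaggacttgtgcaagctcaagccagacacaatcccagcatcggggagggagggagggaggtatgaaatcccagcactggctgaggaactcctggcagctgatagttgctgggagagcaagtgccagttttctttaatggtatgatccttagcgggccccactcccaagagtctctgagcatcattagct
Fkbp14, chr6:54593125-54593424, minus strand: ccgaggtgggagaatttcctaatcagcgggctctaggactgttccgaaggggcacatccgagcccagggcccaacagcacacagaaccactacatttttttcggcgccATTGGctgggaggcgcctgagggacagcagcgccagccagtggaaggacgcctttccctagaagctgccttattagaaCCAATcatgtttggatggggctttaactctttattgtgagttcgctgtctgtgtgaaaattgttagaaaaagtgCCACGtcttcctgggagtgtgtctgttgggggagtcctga
Fkbp9, chr6:56831809-56832108, plus strand: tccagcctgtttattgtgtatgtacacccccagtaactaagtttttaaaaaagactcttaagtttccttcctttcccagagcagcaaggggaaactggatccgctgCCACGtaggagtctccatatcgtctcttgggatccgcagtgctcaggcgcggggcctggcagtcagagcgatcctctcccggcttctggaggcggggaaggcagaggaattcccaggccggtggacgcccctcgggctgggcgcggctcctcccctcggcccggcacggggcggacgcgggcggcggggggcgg
Fkbp1b, chr12:4841524-4841823, minus strand: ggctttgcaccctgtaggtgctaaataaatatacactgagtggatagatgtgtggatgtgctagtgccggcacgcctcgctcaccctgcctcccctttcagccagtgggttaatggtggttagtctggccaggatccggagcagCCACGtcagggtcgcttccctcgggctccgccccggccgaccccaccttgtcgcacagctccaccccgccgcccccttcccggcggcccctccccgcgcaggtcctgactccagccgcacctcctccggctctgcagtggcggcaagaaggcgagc
The first Fkbp14 window holds 3 CG dinucleotides and neither motif, and the second holds 11 CG dinucleotides, 2 matches of CCAAT and 1 of CCACG. Fkbp9 and Fkbp1b each hold 1 match of CCACG and none of CCAAT, with 23 and 21 CG dinucleotides. Both motifs are also found, 1 match of each, in windows not printed of Fkbp7 and Fkbp2, ER members whose groups overlapped. Each motif was searched alone, whatever its distance from the other. Among all 32851 windows of this length, 37.4% hold CCAAT and 32.8% hold CCACG on either strand, and the median number of CG dinucleotides is 7. Of the other motifs searched on both strands, TGACG is found in the Fkbp1b window and not in the other 3 (20.8% of all windows), GGGCGG 3 times in that of Fkbp9 and 2 times in that of Fkbp1b (35.7%), and TATAAA in none of the 4 (13.6%). A match describes letters in these windows and not a bound site.

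**Figure D2:**
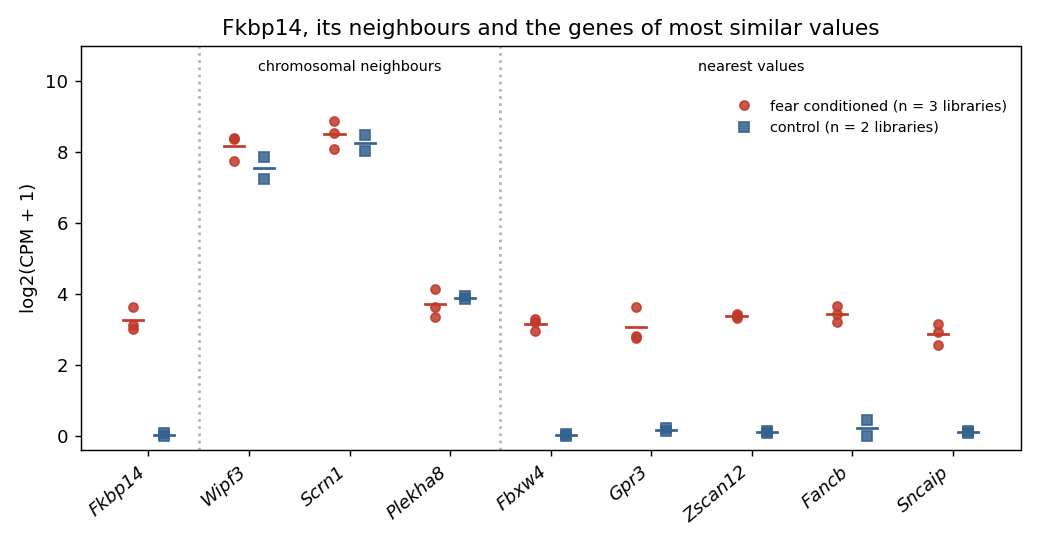
Fkbp14 beside its neighbours on the chromosome (Wipf3, Scrn1 and Plekha8) and the 5 genes of most similar values, as log2(CPM + 1) per library with bars for group means. The neighbours overlap between the groups, while the 5 genes on the right were chosen for looking like Fkbp14.

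The genes whose values were most like those of Fkbp14, by Euclidean distance of log2(CPM + 1) over the 5 libraries, were Fbxw4 (distance 0.37), Gpr3 (0.46), Zscan12 (0.50), Fancb (0.60) and Sncaip (0.71). Fbxw4, an F-box protein, had 188, 165 and 168 reads after fear conditioning against 1 and 0 in controls. Gpr3, a constitutively active receptor that raises cyclic AMP, had 243, 146 and 117 reads and 5 and 2 in controls. All 5 genes were between 4.96 and 11.6 CPM in fear conditioned libraries and at most 0.367 CPM in the controls, which is how they were chosen.

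Fkbp9 (ENSMUSG00000029781), a larger ER isomerase with several FKBP domains, had 52.4, 56.8 and 89.7 CPM in fear conditioned libraries, in order of replicate, against 31.6 and 12.4 in the controls. The groups did not overlap, and the controls themselves were well apart. Its log2 fold change was 1.65 with a standard error of 0.48 (adjusted p = 0.217 in limma), 1.01 without control replicate 7 and 2.29 without control replicate 6. Its mean was 66.3 ± 20.4 CPM (SD, n = 3) after fear conditioning and 22.0 ± 13.6 (SD, n = 2) in controls.

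Fkbp10 and Fkbp7 each had a control library on either side of the fear conditioned ones. Fkbp10 (ENSMUSG00000001555), which encodes FKBP65, a chaperone of procollagen, had 2.32, 1.00 and 2.04 CPM after fear conditioning, 8.95 in control replicate 6 and 0 in control replicate 7. In reads the controls held 268 and 0, and the fear conditioned libraries 49, 24 and 41. Its log2 fold change of -0.21 with a standard error of 1.01 (adjusted p = 0.928 in limma) turned to 1.44 without control replicate 6 and was -1.87 without control replicate 7. It was 0.91 with a pseudocount of 0.1, -0.70 after quantile normalization and -1.31 in DESeq2. Fkbp7 (ENSMUSG00000002732), which encodes FKBP23, a partner of the ER chaperone BiP, had 2.61, 3.04 and 2.98 CPM after fear conditioning against 0.234 and 4.01 in controls. The fear conditioned libraries were within 55 to 73 reads, while the controls held 7 and 76. Its log2 fold change was 0.64 with a standard error of 0.73 (adjusted p = 0.674), -0.37 without control replicate 6 and 1.65 without control replicate 7. It was 1.34 with a pseudocount of 0.1, -0.081 after quantile normalization and 0.37 in DESeq2. For both genes the direction changed with the control library used.

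Fkbp2 (ENSMUSG00000056629), the small ER isomerase FKBP13, was the most abundant ER member. It had 256, 179 and 232 CPM after fear conditioning against 109 and 227 in controls, so control replicate 7 lay within the fear conditioned range and control replicate 6 below it. The log2 fold change was 0.48 with a standard error of 0.36 (adjusted p = 0.522 in limma), -0.05 without control replicate 6 and 1.00 without control replicate 7. Of the 5 ER members, Fkbp9 thus lay above both controls, and Fkbp2, Fkbp7 and Fkbp10 overlapped. Fkbp14 also lay above both, as fixed by its selection.

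**Figure D3:**
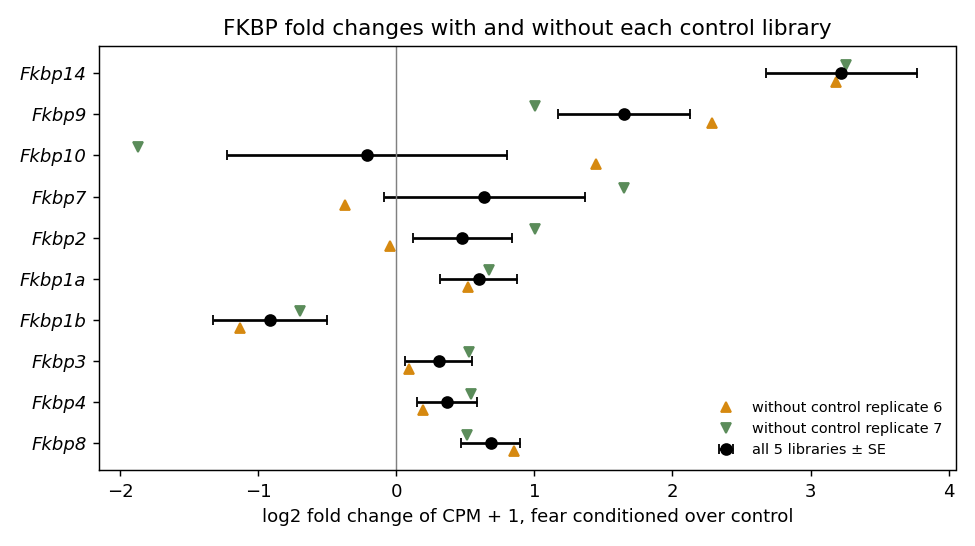
Log2 fold changes of CPM + 1 (fear conditioned over control) of the 10 FKBP genes, with black points and standard errors from limma over all 5 libraries and triangles for the same fit without control replicate 6 or 7, where Fkbp14 is shown as a description only. The triangles lie on opposite sides of 0 for Fkbp10, Fkbp7 and Fkbp2 and on the same side for the other 7.

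Of the calcium channel partners, Fkbp1a lay above both controls and Fkbp1b below them, and neither passed the test. Fkbp1a (ENSMUSG00000032966) encodes FKBP12, which binds ryanodine receptors and the TGF-beta type I receptors and carries FK506 to calcineurin and rapamycin to mTOR. It had 3837, 3803 and 3139 CPM after fear conditioning against 2244 and 2496 in controls. All 3 fear conditioned libraries were higher, with means of 3593 ± 394 (SD, n = 3) and 2370 ± 178 (SD, n = 2). The log2 fold change was 0.60 with a standard error of 0.28 (adjusted p = 0.345 in limma), between 0.52 and 0.69 with each library left out and 0.26 after quantile normalization. RefSeq lists 4 pseudogenes of Fkbp1a, so its reads may include or lose some of theirs. Fkbp1b (ENSMUSG00000020635), which encodes FKBP12.6 and holds the cardiac and neuronal ryanodine receptor RyR2 closed, had 26.6, 14.4 and 21.1 CPM after fear conditioning against 33.1 and 45.2 in controls. Each fear conditioned library was lower than both controls (log2 fold change -0.91, standard error 0.41, adjusted p = 0.328), with values between -1.13 and -0.69 with each library left out. Per kilobase of gene length, Fkbp1b stood at 2.47%, 1.35% and 2.39% of Fkbp1a after fear conditioning and at 5.25% and 6.45% in controls. The ratio within a library shows unequal values of the pair and not which of them differs.

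The remaining members work in the nucleus, with HSP90 and on mitochondria. Fkbp8 (ENSMUSG00000019428), which encodes the membrane-anchored FKBP38 that binds Bcl-2 on mitochondria, had 656, 617 and 649 CPM after fear conditioning against 449 and 354 in controls. The fear conditioned libraries were close together, 641 ± 21.1 (SD, n = 3), and above both controls, 401 ± 67.2 (SD, n = 2). Its log2 fold change was 0.68 with a standard error of 0.21 (adjusted p = 0.230 in limma), between 0.51 and 0.85 with each library left out. Fkbp4 (ENSMUSG00000030357), the HSP90 co-chaperone FKBP52 of steroid receptors, had 168, 183 and 159 CPM after fear conditioning against 116 and 148 in controls, without overlap. Its log2 fold change was 0.37 with a standard error of 0.22 (adjusted p = 0.435), 0.19 without control replicate 6 and 0.54 without control replicate 7. Fkbp3 (ENSMUSG00000020949), the nuclear FKBP25, had 391, 346 and 298 CPM and 237 and 322 in controls, and the groups overlapped (log2 fold change 0.31, standard error 0.24, adjusted p = 0.539). Leaving out control replicate 6 brought it to 0.089, and leaving out control replicate 7 to 0.53. For single genes, an exact permutation over all 10 ways to divide 5 libraries (two-sided) cannot give a p below 0.1, which it gave for Fkbp1a, Fkbp4, Fkbp8 and Fkbp9, and gave 0.2 for Fkbp1b.

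Tests built for counts were also applied to the recovered reads. DESeq2 called 2 of the 9 genes besides Fkbp14, Fkbp8 (log2 fold change 0.65, adjusted p = 0.0229) and Fkbp9 (1.58, adjusted p = 0.0446), and it called 8.94% of all genes, 4.53% as higher and 4.42% as lower. Fkbp14 was also among its calls, which is a description. On its scale the median of all genes was -0.07 in place of 0.08. edgeR's likelihood ratio test called none of the 9 (7.7% of all genes), and edgeR's quasi-likelihood test called none of them and 0% of all genes, while 2404 genes reached an unadjusted p under 0.05.

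Levels were compared between genes as CPM per kilobase of the deposited gene length. Fkbp1a stood highest, with a mean of 893 over the 5 libraries (range 646 to 1104), above every other member in 5 of 5 libraries. Next came Fkbp3 at 339 (253 to 416) and Fkbp2 at 315 (172 to 403), whose ranges overlapped and whose order held in 3 of 5 libraries. Fkbp8 followed at 129 (83.6 to 155), below Fkbp2 in all 5 libraries and without overlap. Fkbp4 at 43.5 (32.7 to 51.4) and Fkbp1b at 28.8 (14.7 to 46.3) overlapped, with Fkbp4 above Fkbp1b in the 3 fear conditioned libraries and below it in both controls. Fkbp9 at 14.7 (3.75 to 27.1) overlapped with Fkbp1b and was above the remaining members in every library. The lowest were Fkbp7 at 1.46 (0.132 to 2.27), Fkbp10 at 0.898 (0 to 2.81) and Fkbp14 at 0.842 (0 to 1.84), all overlapping. Fkbp14 exceeded Fkbp10 in all 3 fear conditioned libraries and in control replicate 7, where these were 0.00843 and 0, and was below it in control replicate 6. The mean CPM of Fkbp1a, without division by length, exceeded that of 99.9% of listed genes, and that of Fkbp14 exceeded 29.4%.

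**Figure D4:**
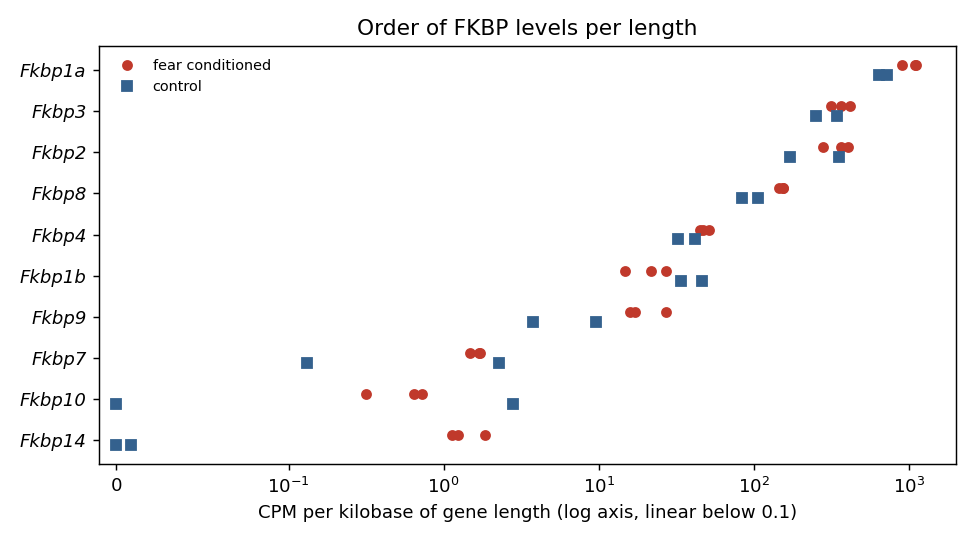
Levels of the 10 FKBP genes in CPM per kilobase of deposited gene length, ordered by mean, with a log axis that is linear below 0.1 and points for each library. Fkbp1a is above every other member in every library, and Fkbp10 and Fkbp14 include libraries at or near 0.

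Of the further FKBP genes, Fkbp5, Fkbp15 and Fkbpl were in the table, and Fkbp6 and Fkbp11 were not listed. Fkbp5, the FKBP51 co-chaperone that restrains the glucocorticoid receptor and is induced by glucocorticoids, had 60.2, 89.5 and 64.9 CPM after fear conditioning against 56.9 and 48.1 in controls (log2 fold change 0.42, standard error 0.29, adjusted p = 0.484 in limma). The groups did not overlap, but the lowest fear conditioned and the highest control library were close. Fkbp15, an endosomal and actin-associated member, had, like Fkbp10, a control library on either side, with 10.7, 11.2 and 14.5 CPM after fear conditioning, 32.9 in control replicate 6 and 1.74 in control replicate 7. Fkbpl had 15.3, 12.6 and 11.8 CPM against 6.38 and 17.4.

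Lists of genes with related roles were read beside the family, as counts and medians of log2 fold changes, and genes from the 3 of highest mean CPM are given for each. None of the 90 tested genes of these 9 lists, the further FKBP genes included, passed in limma. Of the 90, 19 had an unadjusted p under 0.05 in limma, beside 16.8% of all genes tested. DESeq2 called 9 of the 90, beside 8.94% of all genes. Among the 9 were Hspa5, Pdia4 and Akt1s1 as higher and Lepre1, Rictor, Col1a2, Col6a1 and Col6a2 as lower. The ER folding and collagen-modifying genes had 11 of 21 tested genes higher and 10 lower (median log2 fold change 0.03, and -0.06 after quantile normalization), 6 wholly above and 4 wholly below controls, beside 20.2% and 16.1% of all genes. Hspa5, the ER chaperone BiP, had 558, 515 and 468 CPM after fear conditioning against 334 and 225 in controls (log2 fold change 0.90, standard error 0.25, adjusted p = 0.210). Canx, the lectin chaperone calnexin, had 239, 272 and 300 CPM against 384 and 319, and Pdia3, a disulphide isomerase, 290, 227 and 253 against 229 and 236. Of the collagen genes, known clients of the ER members, 8 of 8 tested had log2 fold changes below 0 (median -1.11), 4 of them wholly below controls. The filter on low values kept Col5a1, Col5a2 and Col6a3 through a single control library each, so their direction was in part set by the filter. Col6a3 had 3, 5 and 5 reads after fear conditioning against 202 in control replicate 6 and 1 in control replicate 7. Without control replicate 7 the median was -1.77, but Col5a1 and Col5a2 then fell under the filter on low values and left it. Col5a1 and Col5a2 had 0 reads in control replicate 6 and 100 and 220 in control replicate 7. Every fear conditioned library lay above control replicate 6 for both. Col4a1 turned to 0.17 without control replicate 6 and Col5a1 to 0.50 with a pseudocount of 0.1, while Col3a1, too low to be tested, had 0, 1.25 and 0.74 CPM against 0 and 0. Col6a1 had 26.1, 19.8 and 20.2 CPM after fear conditioning against 56.6 and 52.4 in controls, Col6a2 9.67, 6.95 and 7.30 against 38.4 and 15.2, and Col4a2 15, 8.66 and 5.81 against 17.8 and 17.0. The tested collagen genes were low on the side where the sums of fibroblast, endothelial and mural markers were also low, though not each marker. The collagen and fibroblast lists share Col1a2 and Col3a1, and the part of those cells was not tested.

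Partners of the cytosolic members are read against the 54.0% of all genes with a log2 fold change above 0 and the 20.2% wholly above controls. The HSP90 and steroid receptor list had 9 of 10 genes higher, 5 of them wholly above controls (median 0.35). Hsp90ab1 had 2372, 1925 and 2005 CPM after fear conditioning against 1433 and 1908 in controls, Hsp90aa1 790, 492 and 621 against 525 and 514, and Stip1, the adaptor between HSP70 and HSP90, 316, 285 and 244 against 201 and 149. Calcineurin and its regulators had 7 of 8 tested genes higher, 5 of them wholly above (median 0.71, 0.64 without control replicate 6 and 0.48 without control replicate 7). Their catalytic subunit Ppp3ca, at 1872, 3499 and 3218 CPM against 2010 and 3538, overlapped, as did Ppp3cb, at 322, 375 and 415 against 251 and 412. The regulatory subunit Ppp3r1 had 1011, 1570 and 1555 CPM against 976 and 855. The ryanodine and IP3 receptors split 3 and 3 (median 0.11, and -0.71 without control replicate 7), and none lay wholly above controls. Ryr2, the partner of Fkbp1b, had 24.2, 23.7 and 27.9 CPM against 37.3 and 21.7, and Itpr1, the main neuronal IP3 receptor, 332, 548 and 536 against 271 and 448. Ryr3 had 17.2, 20.4 and 26.0 CPM after fear conditioning, 42.4 in control replicate 6 and 0.0527, which is 1 read, in control replicate 7.

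The mTOR list had 6 of 10 genes higher (median 0.28, 0.45 without control replicate 6 and 0.072 without control replicate 7), with Rheb, its activating GTPase, at 704, 698 and 474 CPM against 458 and 576, Mapkap1 at 102, 147 and 117 against 75.1 and 47.6, and Tsc2 at 74.2, 69.7 and 54.7 against 105 and 70.1. The TGF-beta family type I receptors had 4 of 7 higher (median 0.29, -0.47 without control replicate 6 and 0.10 without control replicate 7). Acvr1 had 17.7, 18.1 and 20.8 CPM against 31.9 and 39.6, Bmpr1a 19.1, 32.9 and 37.6 against 13.3 and 40.1, and Acvrl1 9.29, 16.0 and 29.2 against 7.58 and 41.5. The cyclophilins and parvulins, the other families of proline isomerases, had 10 of 16 higher (median 0.13, 0.25 without control replicate 7 and 0.045 after quantile normalization). Ppia, cyclophilin A, had 846, 725 and 719 CPM against 530 and 852, and Ppig 194, 148 and 158 against 97.2 and 326.

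**Figure D5:**
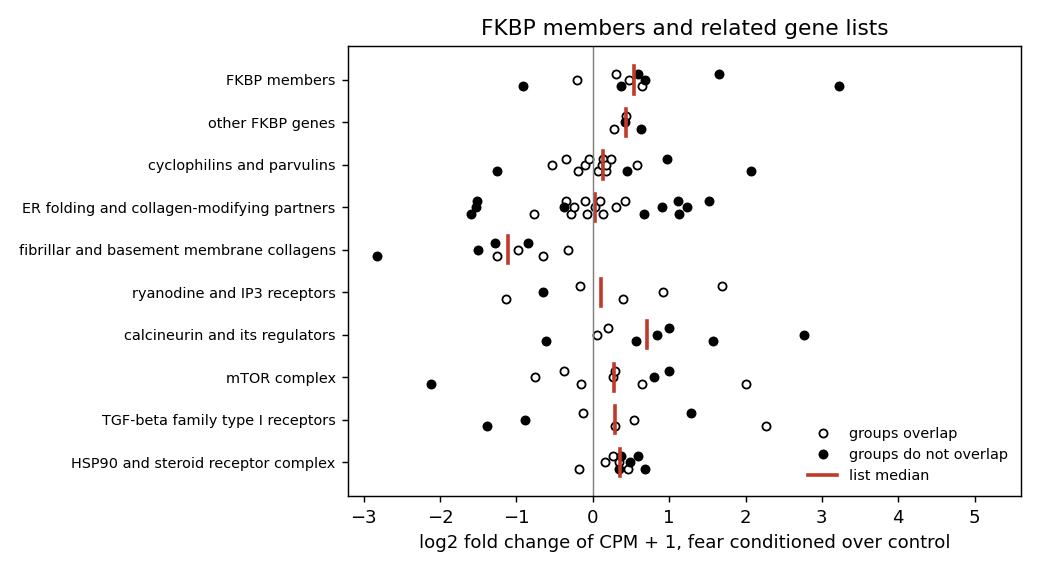
Log2 fold changes of CPM + 1 (fear conditioned over control) of the 10 FKBP genes and of 9 lists of related genes, 1 point per tested gene, filled where the groups do not overlap, with a red bar at the list median. All 8 tested collagen genes lie below 0, and some of them passed the filter on low values only through a control library. The FKBP median of 0.54 includes Fkbp14, which was selected on this contrast.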

How the data were processed

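Ribosome-bound RNA was sequenced in 3 fear conditioned and 2 control libraries, grouped by their labels. For each of 15093 genes the authors deposited a normalized signal, here called CPM, and a gene length. The values are read counts divided by an effective library size: divided by a library's smallest step, 100% of them come out whole within 0.01, and the quotients served as recovered reads. The authors' software is called Tuxedo DESeq in the methods, and the submitters' processing notes name DESeq and the build mm8. The aligner, the versions and the use of strand are not given in the sources used here.

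Groups were compared with limma 3.58.1 (trended eBayes) after a log2 transform with a pseudocount of 1, on 13560 genes whose mean reached 1 CPM. The recovered reads were tested with edgeR 4.0.16 and DESeq2 1.42.0 after edgeR's filter on low counts. Other alternatives were a pseudocount of 0.1, no low-value filter or one requiring 1 CPM per library, quantile normalization, dropping the fold change cutoff and leaving out each library. Genes were named by rule: the 10 members, the further FKBP genes, the 3 genes of highest mean in each list of related genes, and the 5 nearest to Fkbp14. Neighbours of Fkbp14, single marker genes and further list genes are named outside it, chosen after their values were seen. These list genes are Pdia4, Akt1s1, Lepre1, Rictor, Col1a2, Col3a1, Col4a1, Col5a1, Col5a2 and Col6a3. The members and lists were chosen with earlier results of these data known. Some genes that the rule named are not reported here. Fits were tested on simulated data in which both groups varied alike, unlike the libraries here. Negative gene lengths (9 genes) were not used. Software was R 4.3.3 and Python 3.11.15 with scipy 1.17.1, pandas 2.3.3, numpy 2.4.6 and matplotlib 3.10.9.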

Additional observations from a re-analysis of the deposited data

How the results depend on the processing

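The number of genes passing in limma was 0 of 13560, with 2280 at an unadjusted p under 0.05, and also 0 with a pseudocount of 0.1, the other filters, quantile normalization, no fold change cutoff and both normalizations of edgeR's quasi-likelihood test. It was 1115 with edgeR's likelihood ratio test, 1296 with DESeq2 and between 0 and 8025 with each library left out. The FKBP genes among them numbered 1, 3 and 0 to 5, and each count above 0 includes Fkbp14, which was selected on this contrast and is no test, so that the likelihood ratio test called no other member and DESeq2 called Fkbp8 and Fkbp9. The highest numbers came without a control library, 8025 without replicate 6 and 3722 without replicate 7, where the lone control has no spread of its own and is assumed to vary like the fear conditioned libraries. Besides Fkbp14, Fkbp10, Fkbp1b, Fkbp8 and Fkbp9 passed without control replicate 6, and Fkbp10, Fkbp2 and Fkbp7 without control replicate 7. The number of FKBP genes whose groups did not overlap was 6, also after quantile normalization, and between 6 and 10 with each library left out, 10 of them without control replicate 7, beside 77.9% of all genes. Each of these counts includes Fkbp14, whose place was fixed by its selection. Without division by gene length, 3 of the 10 genes kept their place in the order of levels. Directions reversed for 3 genes: Fkbp2 (-0.048 without control replicate 6 and 1.00 without control replicate 7), Fkbp7 (-0.081 after quantile normalization, -0.37 without control replicate 6 and 1.65 without control replicate 7) and Fkbp10 (0.91 with a pseudocount of 0.1, 0.01 without fear conditioned replicate 3, 1.44 without control replicate 6 and -1.87 without control replicate 7). The cause was not tested. A minimum of 1 CPM per library removed Fkbp7, Fkbp10 and Fkbp14. No paired analysis was possible because the groups share no replicate numbers. Counting error is widest for Fkbp7, Fkbp10 and Fkbp14, which had 7 reads or fewer in a control library, for Fkbp7 and Fkbp14 in control replicate 6, the deepest of the 5.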
